A study of Mus musculus with 8 samples.

Results

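The MHC class II genes and their transactivator were followed across bone marrow stem and progenitor cells of normal mice and of mice with chronic myeloid leukaemia (CML). The 8 genes, of 20207 in the RPKM files, were the α and β chains of I-A (H2-Aa, H2-Ab1) and of I-E (H2-Ea, H2-Eb1), the DM chains H2-DMa and H2-DMb1, the invariant chain Cd74 and Ciita. They were selected by symbol with the differences between CML and normal stem cells in these libraries already known, so that their values in that comparison are a description and were not tested. All 8 passed the minimum on RPKM (a total above 1 over the libraries), among 12561 genes tested.

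RNA was sequenced in 8 libraries of sorted bone marrow cells. Normal cells gave 2 libraries of long-term stem cells (LT-HSC, from mice of 2 months and of 6 months), 1 of short-term stem cells (ST-HSC, 2 months) and 1 of KLS- progenitors (2 months). CML-affected mice gave 2 libraries of LT-CML stem cells, 1 of ST-CML stem cells and 1 of CML-KLS- progenitors, with no age in the labels. LT and ST cells are c-Kit+ Lineage- Sca-1+ cells that lack CD48 and CD135, with CD150 on LT cells alone, and KLS- cells are c-Kit+ Lineage- cells without Sca-1. The study's methods describe CML mice that carry Tal1-tTA and TRE-BCR-ABL1, in which withdrawal of doxycycline turns BCR-ABL1 on in cells that use the Tal1 control region, and littermates with Tal1-tTA alone, on an FVB/N background. The labels give C57BL/6 for all 8 libraries. Whether the CML and normal cells shared 1 MHC haplotype was not tested, and disease and any difference in strain cannot be told apart. The number of mice behind a library is not given in the sources used here, so p-values measure the spread between libraries, which may be technical.

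Class II molecules carry peptides from the endosome to the cell surface, where CD4 T cells read them. An α and a β chain pair in the endoplasmic reticulum around the invariant chain, which blocks the peptide groove and steers the complex to endosomes; DM then helps to exchange the remnant of the invariant chain for peptide, and DO, made of H2-Oa and H2-Ob, restrains DM. Ciita binds no DNA itself but is recruited to the X and Y boxes of class II promoters by RFX, CREB and NF-Y proteins, and its own transcription largely sets which cells make class II. B cells, dendritic cells and macrophages are the known professional presenting cells. In the H2-b haplotype of C57BL/6 mice a deletion at the H2-Ea promoter silences the gene, so no I-E reaches the surface. GENCODE M1 accordingly lists the locus as a pseudogene, H2-Ea-ps.

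Of the members, H2-Aa, H2-Eb1, H2-DMa and H2-DMb1 had entries in the RefSeq promoter table used for sequence (GRCm38.p6); H2-Ab1, H2-Ea, Cd74 and Ciita had none. The 130 bases before the annotated start are shown for 3 of the members, and for H2-Ob and H2-DMb2 because these neighbours had large differences between CML and normal cells. Capitals mark an X-box pattern (AGNAACNNATG), a Y-box core (GATTGG, or its reverse complement) or a cAMP response element (TGACGTCA), searched on both strands of the 250 bases before the start, and no match overlapped another.
H2-Eb1 (chr17:34305737-34305866, plus strand): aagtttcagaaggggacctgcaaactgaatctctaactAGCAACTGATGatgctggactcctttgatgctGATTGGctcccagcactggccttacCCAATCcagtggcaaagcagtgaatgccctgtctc
H2-DMb1 (chr17:34153061-34153190, plus strand): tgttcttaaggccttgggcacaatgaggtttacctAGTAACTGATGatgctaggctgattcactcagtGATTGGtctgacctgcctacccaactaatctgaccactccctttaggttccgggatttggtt
H2-Ob (chr17:34238775-34238904, plus strand): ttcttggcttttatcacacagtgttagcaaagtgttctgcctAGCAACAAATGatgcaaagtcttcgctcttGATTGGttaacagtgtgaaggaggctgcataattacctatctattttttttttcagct
H2-Aa (chr17:34287824-34287953, minus strand): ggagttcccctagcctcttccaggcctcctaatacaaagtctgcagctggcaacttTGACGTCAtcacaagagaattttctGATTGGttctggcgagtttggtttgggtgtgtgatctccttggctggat
H2-DMb2 (chr17:34145119-34145248, plus strand): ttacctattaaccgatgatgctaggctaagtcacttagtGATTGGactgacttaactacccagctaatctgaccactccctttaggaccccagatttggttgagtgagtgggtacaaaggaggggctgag

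H2-Eb1 held the X-box pattern at positions -92 to -82 from its start and a Y-box core 21 bases after it. H2-DMb1 had the same arrangement with 22 bases between the boxes, and H2-Ob with 19. H2-Aa had no match to the X-box pattern but a cAMP response element at -74 to -67 and a Y-box core at -49 to -44. H2-DMb2 had the Y-box core alone among these motifs, and of 2 entries for H2-DMa 1 had no match and the other a single Y-box core. Of 32851 promoters in the table, 0.715% held the X-box pattern, 14.6% the Y-box core, 1.55% the cAMP response element and 0.103% both boxes. These matches describe the reference letters only.

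In the mm9 genome, the build of the files, 6 members lay within 209.5 kb of chromosome 17. From the centromeric side these were H2-DMa (chr17:34272127-34276046), H2-DMb1 (34290017 to 34297168), H2-Ab1 (34400154 to 34406363), H2-Aa (34406276 to 34424772, minus strand), H2-Eb1 (34442828 to 34453144) and H2-Ea (34478897 to 34481589, minus strand). The annotated 3′ ends of H2-Ab1 and H2-Aa overlap, and the use of strand in counting is not given in the sources used here, so that reads in the overlap could belong to either. Ciita is on chromosome 16 (chr16:10480237-10527657), and Cd74 lies outside the cluster on a chromosome of its own.

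The largest relative depth, estimated from the steps between low RPKM values, was 1.34 times the smallest, and such steps were whole in 94.3% of 4110 low genes. Ly6a, the gene for Sca-1, was between 72.4 and 152 RPKM in the stem libraries and at 8.16 and 11.7 RPKM in the KLS- libraries. Slamf1, the gene for CD150, was at 14.3 and 10.7 RPKM in LT-HSC 1 and 2 and at 35.5 and 25.4 RPKM in LT-CML 1 and 2. It was at 1.11 and 2.87 RPKM in ST-HSC and ST-CML. Transcripts of 2 markers that the sort selected against were higher in the ST than in the LT libraries, which goes against the gate. Flt3, the gene for CD135, was highest in ST (61.6 and 71.6 RPKM), against 10.02 and 17.1 RPKM in the KLS- libraries. In LT-HSC 1 and 2 it was at 3.95 and 2.52 RPKM, and in LT-CML 1 and 2 at 11.9 and 19.2 RPKM. Cd48 was at 41.8 and 45.2 RPKM in ST and 174 and 129 RPKM in KLS- libraries. In LT-HSC 1 and 2 it was at 10.45 and 5.17 RPKM, and in LT-CML 1 and 2 at 16.8 and 29.5 RPKM. Slamf1, Flt3 and Cd48 were thus each higher in both LT-CML than in both LT-HSC libraries. The part of this difference in the class II values was not tested. The 6-month LT-HSC library (LT-HSC 2) stood apart, holding the highest value of 6 of the 8 members. Of 8 B cell markers, 4 were higher and 4 lower in it than in LT-HSC 1 (sums of 38.01 and 37.2 RPKM), and of 8 dendritic cell markers 5 were higher and 3 lower (4.95 and 3.69 RPKM). In bulk libraries, fewer cells of a type and less RNA per cell cannot be told apart.

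H2-Aa, the I-A α chain, was at 31.3 RPKM in LT-HSC 1, 130.8 in LT-HSC 2, 25.8 in ST-HSC and 2.63 in normal KLS- cells. In CML cells it was at 49.98 and 30.98 RPKM in LT-CML 1 and 2, 83.5 in ST-CML and 10.3 in CML-KLS-. LT-HSC 2 was the highest library and normal KLS- the lowest, and the CML and normal stem libraries overlapped. H2-Ab1, the I-A β chain, was also highest in LT-HSC 2 and lowest in the KLS- libraries, with 21.3, 55.3, 23.9 and 6.87 RPKM in LT-HSC 1, LT-HSC 2, ST-HSC and normal KLS-. Its CML values were 24.1, 18.6, 38.9 and 5.12 RPKM in LT-CML 1, LT-CML 2, ST-CML and CML-KLS-. Both I-A chains were thus present in every library, with means of 45.7 and 24.3 RPKM over the 8. Between CML stem and normal HSC libraries the difference in log2(RPKM + 1) was 0.09 (standard error 0.61) for H2-Aa and -0.22 (standard error 0.39) for H2-Ab1, smaller than the spread between libraries of 1 group. Without LT-HSC 2 these differences were 0.81 and 0.19.

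The I-E chains differed between the CML and normal libraries in opposite directions. Whether these cells shared 1 MHC haplotype was not tested, so disease and any difference in strain cannot be told apart here. H2-Eb1, the I-E β chain, was at 7.60 RPKM in LT-HSC 1, 32.3 in LT-HSC 2, 5.32 in ST-HSC and 0.799 in normal KLS-. In LT-CML 1, LT-CML 2, ST-CML and CML-KLS- it was at 0.347, 0.296, 0.772 and 0 RPKM. Every CML library was below every normal library, the normal KLS- library included. The mean over the stem libraries was 15.1 ± 14.9 RPKM (SD, n = 3) in normal HSCs and 0.472 ± 0.261 RPKM (SD, n = 3) in CML stem cells, a ratio of 31.9. On the log2(RPKM + 1) scale the difference was -3.06 (standard error 0.56), and -2.34 without LT-HSC 2.

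H2-Ea, the I-E α chain, was the converse, with 0.064 RPKM in LT-HSC 1, 0.0535 in LT-HSC 2 and 0 in both ST-HSC and normal KLS-. It was at 1.23 and 0.771 RPKM in LT-CML 1 and 2, 1.58 in ST-CML and 0.143 in CML-KLS-. Each CML library, KLS- included, was above each normal library, although the level in CML cells stayed far below that of the I-A chains. If the smallest common step of its values is 1 read, these values are 1, 1, 0 and 0 reads in the normal libraries and 20, 11, 23 and 2 in the CML libraries. The 54 reads of the CML stem libraries against 2 of the normal ones give a ratio of 29.4 per unit of depth. Its 95% interval of 7.75 to 249 (exact binomial on the pooled reads) covers counting error only. It leaves out the spread between libraries and the choice of the gene with this difference known, and is not a test of CML against normal cells. The difference in log2(RPKM + 1) was 1.06 (standard error 0.15), and 3.20 with a pseudocount of 0.1 RPKM, since the pseudocount of 1 RPKM exceeds most values of this gene.

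**Figure D1:**
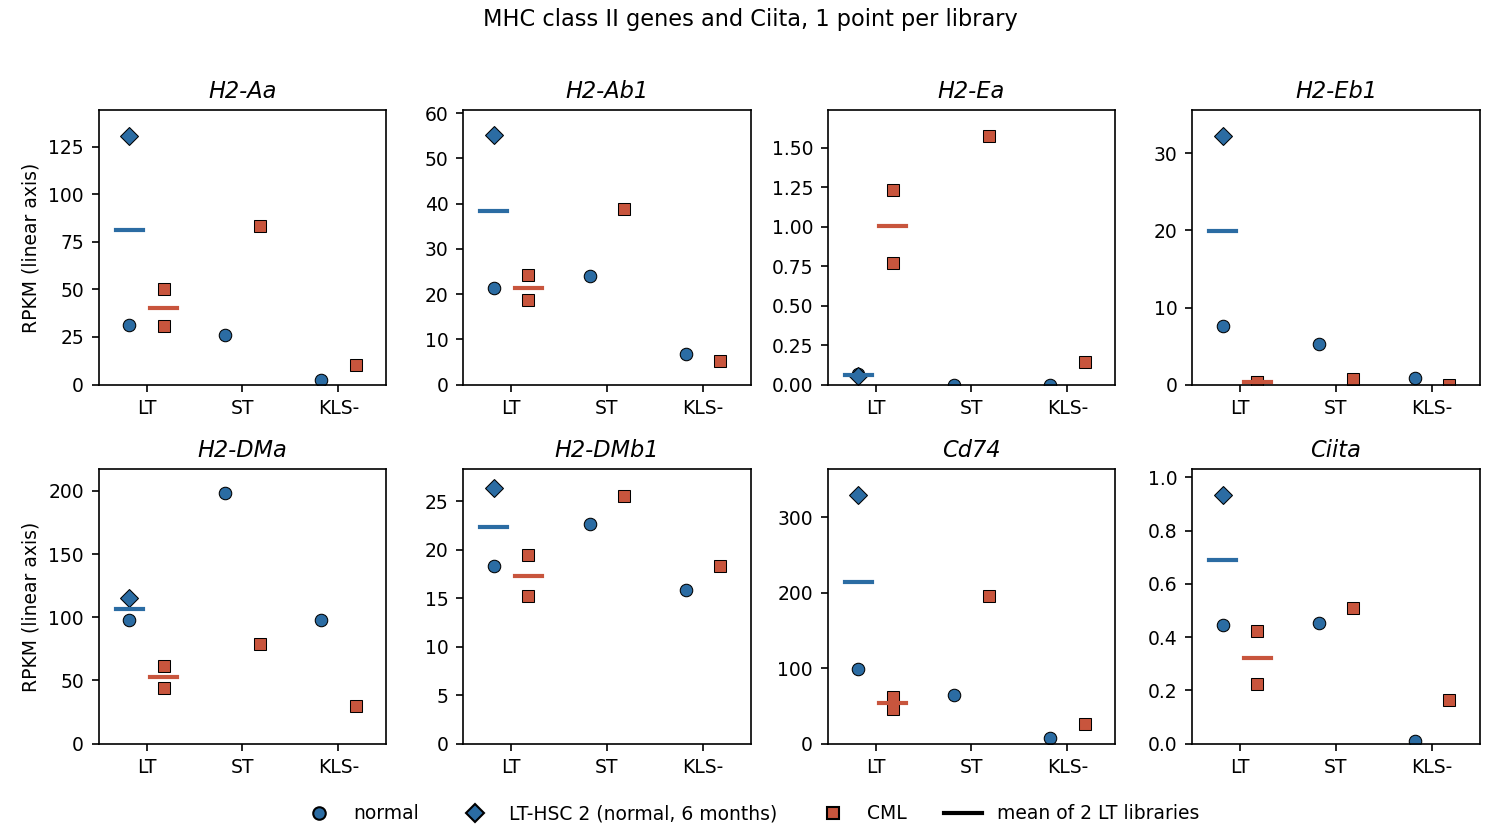
RPKM of each gene (linear axis from 0) in the LT, ST and KLS- populations, 1 point per library, blue for normal and red for CML cells; bars are means of the 2 LT libraries and the diamond is LT-HSC 2. H2-Ea is near 0 in the 4 normal libraries and highest in ST-CML at 1.58 RPKM, whereas H2-Eb1 is below 1 RPKM in the 4 CML libraries and reaches 32.3 RPKM in LT-HSC 2.

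H2-DMa, the α chain of the peptide exchange factor DM, was at 97.7, 115.3, 198.2 and 97.9 RPKM in LT-HSC 1, LT-HSC 2, ST-HSC and normal KLS-. In LT-CML 1, LT-CML 2, ST-CML and CML-KLS- it was at 61.5, 43.7, 78.7 and 29.5 RPKM. Each CML library was below each normal library, and the ratio of the stem means was 2.24. The difference in log2(RPKM + 1) was -1.12 (standard error 0.30) between stem libraries. H2-DMb1, its partner, ranged from 15.2 RPKM (LT-CML 2) to 26.4 RPKM (LT-HSC 2), the smallest ratio of highest to lowest value (1.73) among the members with no library at 0, and its stem libraries overlapped with a difference of -0.17 (standard error 0.22). The ratio of H2-DMa to H2-DMb1 was 4.37 to 8.76 in the normal libraries and 1.61 to 3.17 in the CML libraries.

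Cd74, the invariant chain, was at 98.7, 330.2, 64.8 and 7.27 RPKM in LT-HSC 1, LT-HSC 2, ST-HSC and normal KLS-, and was the most abundant member on average (103.8 RPKM over the 8 libraries). In LT-CML 1, LT-CML 2, ST-CML and CML-KLS- it was at 61.7, 45.9, 195.2 and 26.3 RPKM. CML cells were lower among the LT libraries and higher in the ST and KLS- populations, and the stem libraries overlapped. The difference of -0.64 (standard error 0.69) between stem libraries became 0.04 without LT-HSC 2. Ciita, the master transactivator, was at 0.447, 0.934, 0.454 and 0.00958 RPKM in LT-HSC 1, LT-HSC 2, ST-HSC and normal KLS-. In LT-CML 1, LT-CML 2, ST-CML and CML-KLS- it was at 0.422, 0.224, 0.510 and 0.163 RPKM. By the same steps these are 46, 115, 44 and 1 reads in normal cells and 45, 21, 49 and 15 in CML cells, so that Ciita was detected in every library but by 1 read in normal KLS- cells. The stem libraries overlapped, with a difference of -0.21 (standard error 0.15).

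Within each population the same contrast could be read for LT, ST and KLS- cells in turn, with 1 library a side in the last 2. H2-Eb1 differed by -3.68, -1.84 and -0.85 on the log2(RPKM + 1) scale in LT, ST and KLS- cells. H2-DMa differed by -1.02, -1.32 and -1.70 and H2-Ea by 0.91, 1.37 and 0.19 in the same order. These 3 genes kept 1 direction in the 3 populations. H2-Aa differed by -0.69, 1.66 and 1.64, and Cd74 by -1.75, 1.58 and 1.73. For H2-Aa the LT libraries overlapped, since LT-HSC 1 lay between LT-CML 2 and LT-CML 1. Of the 8 genes, 1 was higher and 2 were lower in the CML stem libraries without overlap, where 6.92% and 11.4% of all tested genes were, and nothing is read from those counts because the members were chosen on this contrast.

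**Figure D2:**
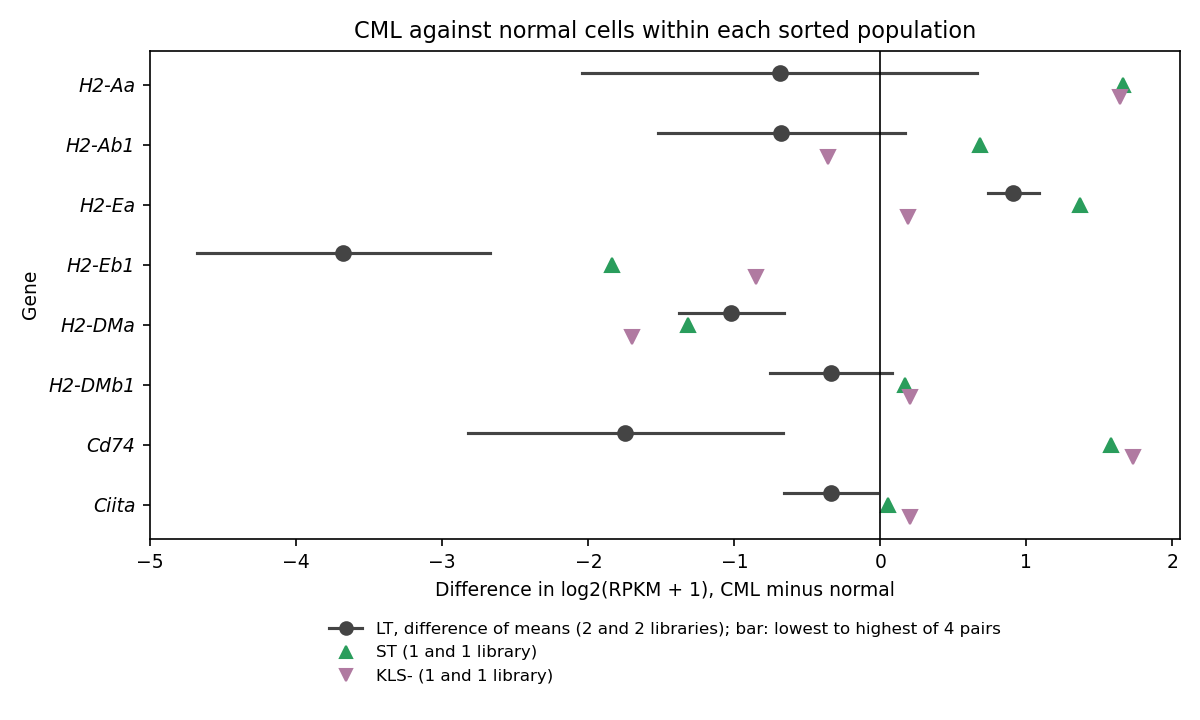
Difference in log2(RPKM + 1), CML minus normal, for each gene in LT cells (circle, difference of 2 means; bar, lowest to highest of the 4 library pairs), ST cells (upward triangle) and KLS- cells (downward triangle). H2-Eb1 and H2-DMa are left of 0 and H2-Ea is right of 0 in the 3 populations, whereas Cd74 is at -1.75 in LT cells and at 1.58 and 1.73 in ST and KLS- cells.

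The chains were also expressed relative to H2-Ab1 in the same library, as a description. H2-Ab1 itself differed by only -0.22 in log2(RPKM + 1) between CML stem and normal HSC libraries. The ratio therefore could not have removed the split between the I-E chains, and nothing is read from its staying. H2-Eb1 was 35.6%, 58.4%, 22.3% and 11.6% of H2-Ab1 in LT-HSC 1, LT-HSC 2, ST-HSC and normal KLS-, and 1.44%, 1.59%, 1.98% and 0% in LT-CML 1, LT-CML 2, ST-CML and CML-KLS-. H2-Ea was at most 0.300% of H2-Ab1 in a normal library and 2.80% to 5.11% in the CML libraries. H2-Aa, by contrast, was 1.08 to 2.37 times H2-Ab1 in the 3 normal HSC libraries and 1.67 to 2.15 times in the 3 CML stem libraries. LT-HSC 2, highest in absolute terms, also had the highest ratio of H2-Eb1 to H2-Ab1.

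**Figure D3:**
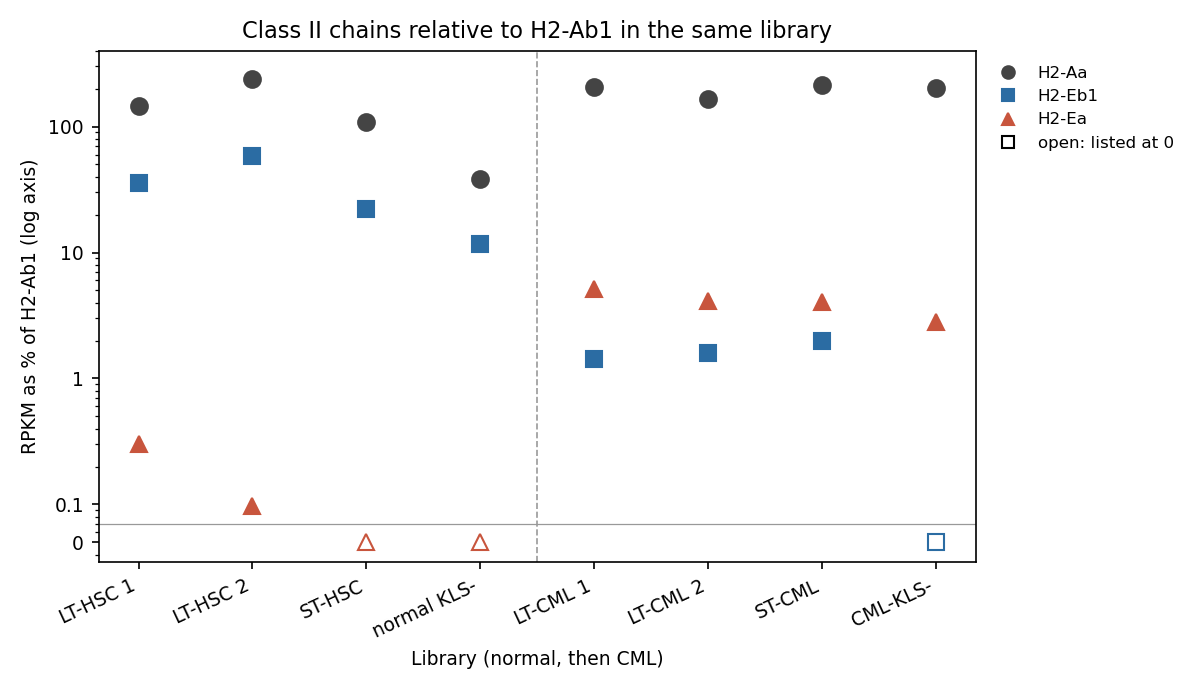
RPKM of H2-Aa, H2-Eb1 and H2-Ea as a percentage of H2-Ab1 in the same library (log axis; open symbols are genes listed at 0), with the normal libraries to the left of the dashed line and the CML libraries to the right. H2-Eb1 lies between 11.6% and 58.4% in normal cells and at or below 1.98% in CML cells, and H2-Ea lies at or below 0.300% in normal cells and at or above 2.80% in CML cells.

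The genes around the members on chromosome 17 were examined next. In the order of the chromosome, 17 neighbours passed the minimum on RPKM, and limma called 1 of them (H2-DMb2) between CML stem and normal HSC libraries at an adjusted p under 0.05, where 2.34% of all tested genes were called. At an unadjusted p under 0.05 there were 7 (12.5% of all tested genes were under it in this comparison), and the median difference of the 17 was -0.27 against -0.04 over all tested genes. H2-DMb2, a second DM β chain gene, was at 0.765, 1.12, 1.83 and 1.25 RPKM in LT-HSC 1, LT-HSC 2, ST-HSC and normal KLS- and at 10.6, 9.56, 15.8 and 11.9 RPKM in LT-CML 1, LT-CML 2, ST-CML and CML-KLS-. It rose by 2.54 on the log2(RPKM + 1) scale (standard error 0.24, adjusted p = 0.0023 from limma), and the CML and normal libraries did not overlap. H2-DMb1 and H2-DMb2 are 95.9% identical over their coding sequences, and 353 of the 737 windows of 50 bases in H2-DMb1 occur unchanged in H2-DMb2. How reads that fit both genes were counted is not given in the sources used here, so the split between them is uncertain.

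Large differences also stood at H2-Ob, which is named after its values were seen. This β chain of DO was at 6.95, 3.20, 31.9 and 4.36 RPKM in LT-HSC 1, LT-HSC 2, ST-HSC and normal KLS- and at 0.145, 0.226, 0.663 and 0.273 RPKM in LT-CML 1, LT-CML 2, ST-CML and CML-KLS-. Each CML library was below each normal library, yet the spread within normal HSCs was wide and the difference of -2.96 (standard error 0.66) did not pass the threshold (adjusted p = 0.0749 from limma). Over the 12 alternatives its adjusted p ran from 0.00618 to 0.301, and it was 0.0451 without LT-HSC 2 and 0.0173 without ST-HSC. Its partner H2-Oa, at 8.94 to 20.0 RPKM in normal HSCs and 15.5 to 24.6 RPKM in CML stem cells, had a difference of 0.58 (standard error 0.30, adjusted p = 0.502 from limma). H2-Eb2 was at 0.0771 RPKM or below in each library and was not tested. Between stem and KLS- libraries limma called 2 neighbours higher and 2 lower, where 26.5% of all tested genes were called higher and 22.2% lower. The differences were 0.88 for H2-Oa, 0.72 for Gpsm3, -0.66 for Rnf5 and -0.86 for Slc39a7.

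Among genes with no class II role in the stretch, the proteasome and peptide transporter genes that serve class I (Psmb8, Psmb9, Tap1 and Tap2, named after their values were seen) had differences of -0.02, -0.44, -0.61 and -0.77 on the log2(RPKM + 1) scale. Their adjusted p values ran from 0.0757 for Tap1 to 0.986 for Psmb8 in limma. A difference over 1 on that scale was held by 2 of the 17 neighbours, H2-DMb2 and H2-Ob, by 3 of the 6 members on this chromosome and by 2.78% of all tested genes. Nothing is read from the count of members, because they were chosen with the differences between CML and normal stem cells known. Btnl2, which lies beside H2-Ea, was at most 0.125 RPKM in the normal libraries and 0.358 to 0.75 RPKM in the CML libraries (difference 0.57, standard error 0.12, adjusted p = 0.0625 from limma); it too is named after its values were seen.

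**Figure D4:**
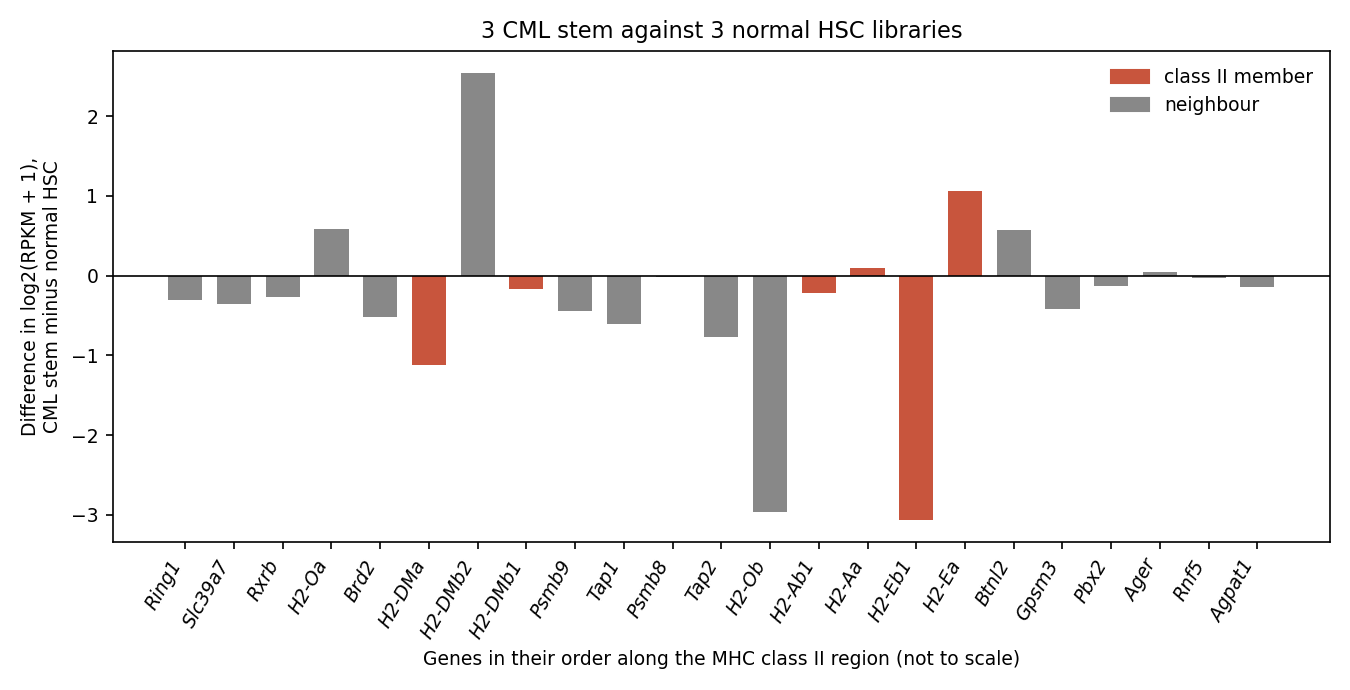
Difference in log2(RPKM + 1) between 3 CML stem and 3 normal HSC libraries for tested genes of the MHC class II region in chromosomal order, not to scale; red bars are members and grey bars neighbours. Bars beyond 1 in either direction stand at H2-DMa, H2-DMb2, H2-Ob, H2-Eb1 and H2-Ea, with differences near 0 at H2-Ab1, H2-Aa and Psmb8 between them.

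Stem libraries were then compared with KLS- progenitors, a contrast that the choice of members did not use. In limma over the 8 libraries, with LT, ST and KLS- means and a term for CML or normal, 5 of 8 members were higher in stem cells and none was lower at an adjusted p under 0.05. Of all tested genes 26.5% were called higher and 22.2% lower in stem cells. Both I-A chains rose in stem cells, H2-Aa by 2.95 (standard error 0.63, adjusted p = 0.00507) and H2-Ab1 by 2.10 (standard error 0.37, adjusted p = 0.00184) on the log2(RPKM + 1) scale. Cd74 was higher by 2.82 (standard error 0.76, adjusted p = 0.0146 from limma) and H2-DMa by 0.83 (standard error 0.18, adjusted p = 0.00615 from limma). Each of the 6 stem libraries had more H2-Aa, H2-Ab1 and Cd74 than either KLS- library. For H2-DMa the 2 KLS- libraries differed from each other more than from their stem cells, and the call was lost without the term for CML or normal (adjusted p = 0.251).

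Ciita was higher by 0.45 (standard error 0.16, adjusted p = 0.0439 from limma), close to the threshold. It passed in 3 of the 9 alternatives that gave a test. The call was lost without LT-HSC 1 (adjusted p = 0.0514), without LT-CML 1 (0.0681), with quantile normalization (0.154), with upper-quartile scaling (0.0517), with no term for CML or normal (0.0576) and with no minimum on RPKM (0.146). H2-Eb1 and H2-Ea had differences of 1.57 and 0.51 that did not pass (adjusted p = 0.0654 and 0.0603 from limma), and H2-Eb1 passed without LT-HSC 2 (difference 1.26, adjusted p = 0.0114). The normal libraries alone gave 2.52 for H2-Eb1 and 0.04 for H2-Ea, and the CML libraries alone 0.61 and 0.99, values with no test. H2-DMb1 differed by 0.33 (standard error 0.19, adjusted p = 0.186 from limma). The markers of macrophages and monocytes moved the other way from class II, with a summed level of 74.8 to 128.8 RPKM in the KLS- libraries and 8.21 to 33.3 RPKM in the stem libraries, and their part in these differences was not tested.

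**Figure D5:**
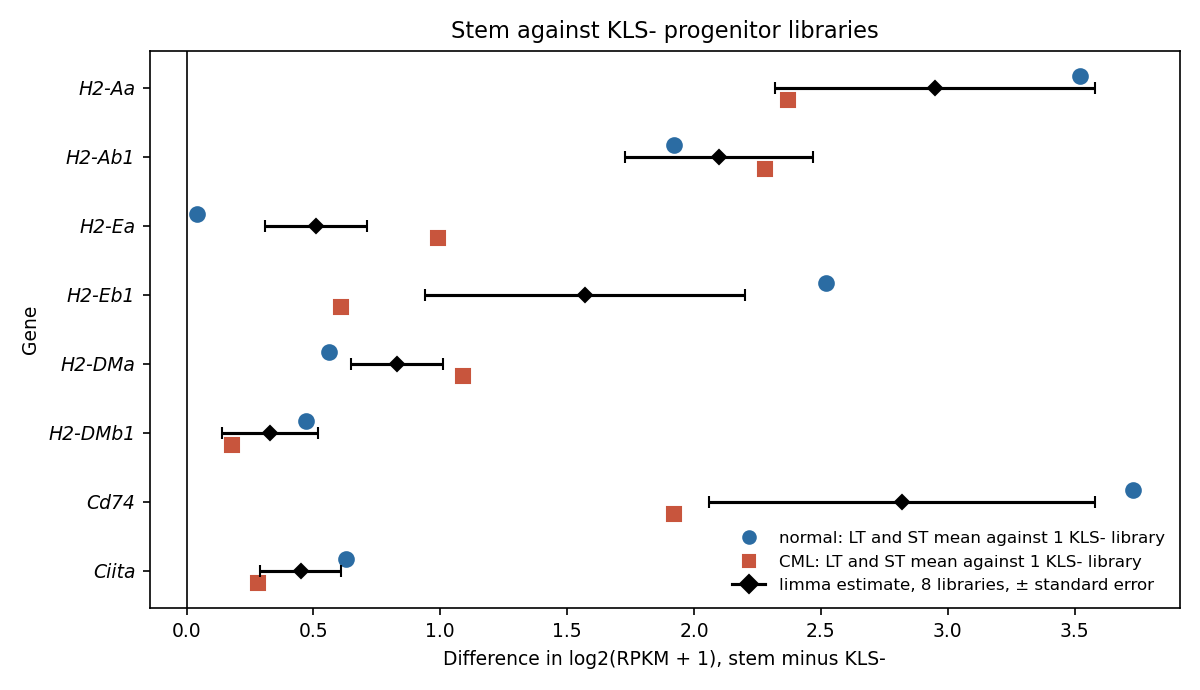
Difference in log2(RPKM + 1), stem minus KLS-, for each gene within normal cells (blue circles) and CML cells (red squares), with the limma estimate over 8 libraries and its standard error (black). The estimates for H2-Aa, Cd74 and H2-Ab1 are 2.95, 2.82 and 2.10, and the H2-Eb1 value is 2.52 in normal and 0.61 in CML cells.

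Between LT and ST stem cells, a second contrast outside the choice of members, limma called 0 of the 8 genes, where 4.87% of tested genes were called. At an unadjusted p under 0.05, which 19.6% of all tested genes were under, there was 1, H2-DMa, which was lower in LT than in ST cells (difference in log2(RPKM + 1) of -0.74, standard error 0.19, adjusted p = 0.0659). It passed in 2 of 10 alternatives, without LT-CML 1 (adjusted p = 0.0265 from limma) and with quantile normalization (0.0404). The highest adjusted p among the alternatives was 0.611, with no term for CML or normal. The differences of the other 7 lay between -0.29 (H2-DMb1) and 0.50 (H2-Eb1), and the ST groups hold 1 library each for CML and normal. Among genes that load or trim class II ligands, H2-Oa fell in LT against ST cells by 0.76 (standard error 0.15, adjusted p = 0.0276 from limma), and Ctss, the protease that trims the invariant chain, by 1.64 (standard error 0.24, adjusted p = 0.00696 from limma). Ifi30, a thiol reductase of endosomes, rose by 1.10 (standard error 0.18, adjusted p = 0.0102 from limma). Of the co-stimulatory ligands, Tnfsf4 was higher in LT cells (difference 1.13, adjusted p = 0.00819 from limma) and Cd86 higher in ST cells (difference -1.16, adjusted p = 0.0485 from limma).

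Transcripts of the proteins that act at the class II promoter were detected in each library. Of 8 such genes (Rfx5, Rfxap and Rfxank of the RFX complex, Nfya, Nfyb and Nfyc of NF-Y, Creb1 and Atf1) limma called 0 between CML stem and normal HSC libraries, also at an unadjusted p under 0.05, and their median difference was -0.18 against -0.04 over all tested genes. In that comparison 2.34% of all tested genes were called and 12.5% were under that unadjusted p. Between stem and KLS- libraries 3 rose and 1 fell, where 26.5% of all tested genes were called higher and 22.2% lower. Rfx5 was higher by 0.66 (standard error 0.13, adjusted p = 0.00392 from limma), Rfxank by 0.55 and Nfya by 0.47, and Nfyb was lower with a difference of -0.43. Rfx5 spanned 1.33 to 3.68 RPKM and Nfya 5.14 to 9.54 RPKM over the 8 libraries, ranges far narrower than those of H2-Aa or Cd74.

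Of 12 inducers and repressors of Ciita, limma called 0 between CML stem and normal HSC libraries, with 3 at an unadjusted p under 0.05 and a median difference of -0.10. Of all tested genes, 2.34% were called there and 12.5% were under that unadjusted p. Irf1, which carries the interferon-γ signal to Ciita, had a difference of -0.65 (standard error 0.17, adjusted p = 0.136 from limma). Between stem and KLS- libraries 5 of the 12 rose and 5 fell, where 26.5% of all tested genes were called higher and 22.2% lower. Among them Irf1 rose by 1.52 and Jak1 by 1.18 in stem cells, and Jak2 and Irf4 by 0.64 and 0.37. Irf8, a factor of the monocyte and dendritic lineages, was lower in stem cells (difference -3.71, standard error 0.19, adjusted p = 7.88e-06 from limma), with 0.904 to 2.07 RPKM in the stem and 28.7 and 37.7 RPKM in the KLS- libraries. Ifngr1, the ligand-binding chain of the interferon-γ receptor, was lower too (difference -1.65, adjusted p = 0.000243 from limma), as were Usf1, Ifngr2 and the file's Sfpi1 (PU.1), with differences of -0.70, -0.60 and -0.38.

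Of 10 loading and turnover genes found in the files (March1 and March8 were not found under those names), limma called 2 higher and 0 lower between CML stem and normal HSC libraries. Of all tested genes, 2.34% were called in that comparison. H2-DMb2 is described above; Lgmn, the asparagine endopeptidase of endosomes, was at 0.615, 0.961 and 1.505 RPKM in LT-HSC 1, LT-HSC 2 and ST-HSC and at 3.04, 3.11 and 5.18 RPKM in LT-CML 1, LT-CML 2 and ST-CML. It rose by 1.23 (standard error 0.23, adjusted p = 0.0399 from limma) with no overlap of the groups, but passed the threshold in 5 of 12 alternatives, and leaving out either LT-HSC, either LT-CML or the ST-CML library gave adjusted p values of 0.0838 to 0.161. Between stem and KLS- libraries H2-Oa and Cd83 rose by 0.88 and 0.63, and Ctsb and Ifi30 fell, with differences of -0.68 and -1.37.

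Co-stimulatory and co-inhibitory ligands, which T cells read together with class II, were higher in stem than KLS- libraries for all 6 tested of 8 in the list. Of all tested genes, 26.5% were called higher in that comparison. Cd86 rose by 2.17 (standard error 0.26, adjusted p = 0.00033 from limma) and Cd274, which encodes PD-L1, by 2.03 (standard error 0.25, adjusted p = 0.00033 from limma), and Pdcd1lg2, Tnfsf4, Cd83 and Icosl rose by 1.5, 1.4, 0.63 and 0.44. The median difference of the 6 was 1.45 against 0.08 over all tested genes. Cd40 and Cd80 were at most 0.211 and 0.265 RPKM in each library and were not tested. Of the 6, 0 were called between CML stem and normal HSC libraries by limma, with 1 at an unadjusted p under 0.05. The shares of all tested genes were 2.34% and 12.5%. Cd274 had 8.16 to 15.6 RPKM in normal HSCs and 14.5 to 25.02 RPKM in CML stem cells (difference 0.84, adjusted p = 0.244).

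The levels of presenting-cell markers stood as follows beside these results. The 8 B cell markers summed to 37.2 to 40.8 RPKM in normal HSCs, 31.1 to 54.5 RPKM in CML stem cells and 42.3 to 47.0 RPKM in KLS- cells, mostly from Cd79b (30.2 to 46.3 RPKM in each library). The defining B cell factor Pax5 was at 0 in 5 libraries and at most 0.0888 RPKM in the others. ST-CML held the highest Cd79a (6.43 RPKM). The 8 dendritic cell markers summed to 3.45 to 4.95 RPKM in normal HSCs and 6.83 to 13.5 RPKM in CML stem cells. That difference lay in Mgl1 (0.280 to 1.54 RPKM against 4.596 to 11.2 RPKM), while Itgax was at 0 in 4 libraries and at most 0.126 RPKM. The 8 macrophage and monocyte markers summed to 8.21 to 14.3 RPKM in normal HSCs and 15.2 to 33.3 RPKM in CML stem cells, with Cd14 at 1.005 to 4.14 and 8.07 to 19.3 RPKM, and C1qa, C1qb and C1qc at or below 0.472 RPKM. The 4 T cell markers summed to 0.356 to 2.95 RPKM over the 8 libraries. The part of such cells in the class II values was not tested.

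The genes most like 4 of the members over the 8 libraries were listed as a description, by Pearson's r of log2(RPKM + 1) among 4697 or 4698 tested genes with a mean of at least 1 RPKM and a range of at least 1. The libraries share sorting gates and disease groups, so the points are not independent. For H2-Aa these were Cd74 (r = 0.964), Grina, Gpr146, C1rl and Zbtb4 (0.952). For Ciita they were Stx6 (r = 0.98), Cd74 (0.956), Hoxb4, Tinagl1 and Akap7 (0.95), so that Cd74 stood in both lists. For H2-Eb1 they were Sepn1 (r = 0.98), Mpzl1, Ppp3ca, Hbb-b2 and Pde6h (0.961), and for H2-Ea Trim65 (r = 0.976), the class I-like gene H2-T3 (0.968), Calr3, Gpr157 and Mrgpra1 (0.955). Mpzl1 was at 2.78 to 6.13 RPKM in normal HSCs and 0.210 to 0.572 RPKM in CML stem cells, and H2-T3 at 0.115 to 0.884 and 6.35 to 8.96 RPKM. No other class II member was among the 5 genes most like H2-Eb1 or H2-Ea.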

How the data were processed

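Sorted cells of 8 libraries were analysed from the RPKM values that the authors deposited (read counts scaled to transcript length and to the number of mapped reads). By the study's account, oligo-dT primed cDNA was made from total RNA with a low-input kit, paired ends were read on a HiSeq2000, and reads were aligned to mm9 by a commercial service; the gene annotation and counting rule are not given in the sources used here. The members and the gene lists were chosen with earlier results of these data known.

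RPKM values are not counts, so log2(RPKM + 1) was fitted with limma 3.58.1 under R 4.3.3 (lmFit, then eBayes with a trend). Of 20207 genes, the 12561 whose values summed to more than 1 RPKM were tested, and p-values were adjusted over them by Benjamini and Hochberg's method (threshold 0.05). CML stem and normal HSC libraries were compared 3 against 3. Stem against KLS- and LT against ST libraries were compared over the 8 libraries with a term for CML or normal, and LT-CML against LT-HSC libraries in a fit of all 8 with 1 mean for each population. CML-KLS- and normal KLS- libraries have no replicate and were not tested. The median shift over all genes was -0.04, 0.08 and 0.01 in the first 3 comparisons. Each fit was tested on simulated data for 12561 genes with 200 changed, and it recovered 94% of them in each of these 3 comparisons. Unchanged genes made up 2.59%, 4.08% and 5.05% of the calls. The planted changes were large, equal in size and placed in genes with a mean log2(RPKM + 1) above 1. The simulated spread came from the pairs of LT libraries, with no other differences between populations. The 94% is therefore not the power of the fits in the real data.

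Genes were named by a rule: the members; from each list the genes past the threshold, otherwise up to 4 with the highest mean RPKM; the 5 genes most like H2-Aa, H2-Ea, H2-Eb1 and Ciita; and the sort markers. Exceptions are stated where they occur. Values of some listed genes are not reported here. Spi1 and Clec10a were found under their older names Sfpi1 and Mgl1. Reads were inferred from the smallest common step of low values (tolerance 0.1 step) for H2-Ea and Ciita alone; intervals cover counting error only. Promoter sequences are from RefSeq (GRCm38.p6), and positions from GENCODE M1 on mm9. As alternatives, fits were repeated with another pseudocount or minimum, after quantile normalization or upper-quartile scaling, with other covariates or libraries, without single libraries, and on ratios to H2-Ab1. Python 3.11 did the rest.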

Additional observations from a re-analysis of the deposited data

Results flagged for a closer look

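Cd74 and Ciita were each lower in both LT-CML than in both LT-HSC libraries and higher in CML cells of another population, and this difference between populations was not tested. For Cd74 the CML minus normal difference in log2(RPKM + 1) was -1.75 in LT cells and 1.58 in ST cells, so that ST exceeded LT by 3.32. In KLS- cells it was 1.73, and KLS- exceeded LT by 3.47. For Ciita the difference was -0.34 in LT cells and 0.05 in ST cells, a gap of 0.40, and 0.20 in KLS- cells, a gap of 0.55. The ST and KLS- populations had 1 library a side, and the ST values of Ciita rest on 44 and 49 inferred reads. Its KLS- values rest on 1 inferred read in normal and 15 in CML cells. In LT cells Ciita had 46 and 115 inferred reads in LT-HSC 1 and 2 and 45 and 21 in LT-CML 1 and 2. LT-HSC 1 and LT-CML 1 were thus nearly equal for Ciita. No group held 4 or more libraries, so no single value could be tested as an outlier.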

How the results depend on the processing

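RPKM was deposited without counts, and 2 libraries at most shared a population, so few residual degrees of freedom set the spread. Between CML stem and normal HSC libraries 294 genes were called, against 173 with no minimum on RPKM (more genes tested), 543 with LT or ST as a covariate and 115 to 217 without single libraries. Between LT and ST libraries 612 were called, against 127 with no minimum, 287 with no term for CML or normal and 373 to 718 without single LT libraries. Between LT-CML and LT-HSC libraries 217 were called by limma, against 0 with no minimum (1881 at an unadjusted p under 0.05) and 6 to 74 without single LT libraries. The 6123 calls between stem and KLS- libraries stayed within 1.5 times under each alternative.

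Of the 8 members, 5 were higher in stem than KLS- libraries, against 2 with no minimum and 3 with no term for CML or normal; the cause was not tested. With no minimum H2-Aa, Cd74 and Ciita had adjusted p values of 0.0652, 0.118 and 0.146. With a pseudocount of 0.1 RPKM H2-Eb1 and H2-Ea passed too (0.00443 and 0.0426). In CML stem against normal HSC libraries the differences of H2-Eb1 (-4.37 to -2.34), H2-Ea (0.94 to 3.20), H2-DMa (-1.33 to -0.82) and Ciita (-0.53 to -0.07) kept their sign under each alternative to RPKM settings and libraries. For H2-Eb1, H2-Ea and H2-DMa the stem groups did not overlap, so leaving out a library or changing the pseudocount could not change the sign. Nothing is read from their kept sign. The differences of H2-Aa, H2-Ab1, H2-DMb1 and Cd74 changed sign when single libraries were left out, and Ciita was at 0.01 as a ratio to H2-Ab1. No paired analysis was possible because the labels give the groups no shared replicate numbers.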
